A study of Mus musculus with 9 samples.

Results

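A set of 10 genes of Toll-like receptor signalling was followed through doxycycline treatment and washout of a mouse leukaemia line: the receptors Tlr1, Tlr2, Tlr4, Tlr6, Tlr7, Tlr9 and Tlr13, the co-receptors Cd14 and Ly96, and the adaptor Myd88. They were found by gene symbol and are 10 of the 27179 gene entries in the count files. Of these 10 genes, 7 had enough reads for the test across genes, and 3 (Tlr9, Tlr13 and Cd14) did not.

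The cells were AML246, an acute myeloid leukaemia line of C57BL/6 mice that lacks p53 (p53-/-) and carries shPU.1, a hairpin RNA directed against PU.1. PU.1 is the myeloid transcription factor encoded by Spi1. Clones 1, 2 and 4 were each grown up from a single sorted cell in medium with the cytokine IL3. Washed clones had 14 days of doxycycline (Dox) and then 14 days without it, and were sorted as GFPhigh. Dox clones had 14 days of Dox and were sorted as GFPoff, and untreated clones had no Dox and were sorted as GFPhigh. All 3 groups carry the hairpin and lack p53, so no group is a wild-type cell, and the 3 clones of a group come from 1 leukaemia line. Dox exposure and the GFP gate change together and cannot be told apart.

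Toll-like receptors are membrane proteins of innate immune cells that bind conserved parts of microbes. Tlr1, Tlr2, Tlr4 and Tlr6 sit at the cell surface, and Tlr7, Tlr9 and Tlr13 bind nucleic acids inside endosomes. All of them can pass their signal through Myd88, which gathers Irak kinases and leads to activation of NF-kappaB and MAP kinases. In blood, neutrophils, monocytes, macrophages and dendritic cells are the main users of the pathway, and PU.1 is known as a regulator of many genes of these cells.

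Library totals ran from 7408118 to 9803258 counts. Values are given as CPM, counts per 1000000 counts of a library, with library sizes scaled by the TMM method. In untreated clone 1, 22.0% of counts lay on 1 entry without a symbol (0.153% to 1.64% in the other libraries), and its TMM factor was 0.736, against 0.916 to 1.18. Spi1 had 52.0, 40.6 and 23.9 CPM in washed clones 1, 2 and 4, 197, 191 and 156 CPM in Dox clones, and 48.1, 46.6 and 23.7 CPM in untreated clones, so the Dox clones lay above all others. All 8 markers of myeloid leukaemia cells passed the count filter, with a summed level of 355 to 3330 CPM in washed, 893 to 1400 CPM in Dox and 387 to 759 CPM in untreated clones. The granule genes Mpo, Elane, Ctsg and Prtn3 had lower means in Dox than in washed or untreated clones (Mpo 612 CPM in washed, 9.88 in Dox and 71.1 in untreated clones), and Ptprc, Kit, Cd33 and Itgam had higher ones (Ptprc, a pan-leukocyte marker, 0.623 CPM in washed, 38.4 in Dox and 1.55 in untreated clones). Of 9 monocyte and macrophage markers, 7 passed the filter, with a summed level of 1810 to 2250 CPM in washed, 1210 to 5370 CPM in Dox and 1780 to 2310 CPM in untreated clones, mostly Ly6c2. The dendritic list, mostly H2-Ab1, summed to 11.0 to 187 CPM in washed, 29.3 to 121 CPM in Dox and 103 to 181 CPM in untreated clones, and the T and NK cell list, mostly Cd3g, to 8.38 to 211, 8.38 to 38.4 and 83.3 to 164 CPM in the same groups. The defining markers Marco, Siglech, Cd209a, Pax5 and Ncr1 had 0 counts in all 9 libraries. In bulk RNA, fewer cells of a type and less RNA per cell cannot be told apart.

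Myd88 was the most abundant of the 10 genes, and its level in Dox clones was above that in untreated clones in each of the 3 clones. Tlr2, Tlr4, Tlr7, Tlr9 and Tlr13 also had all Dox values above all untreated values. After washout all of these except Tlr7 had every value below every Dox value, and for Tlr7 the washed value was the lower one within each clone. Tlr6 was higher in Dox than in untreated clones within each clone but the groups overlapped, and Tlr1, Cd14 and Ly96 had no common direction between Dox and untreated clones.

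Of the 7 tested genes, 1 (Myd88) was called higher in Dox than in untreated clones and 0 lower by edgeR's quasi-likelihood test at an adjusted p of 0.05. The background was 6.57% of 12004 tested genes called higher and 4.35% called lower. With clone as a block in the model, which pairs the libraries of 1 clone, 4 were called higher (Myd88, Tlr2, Tlr4 and Tlr7), against a background of 13.0%. Of the tested genes, 4 had all Dox values above all untreated values, against a background of 20.4%, and 3 had all washed values below all Dox values, against 14.5%. For washed against Dox clones, 1 (Tlr4) was called lower against a background of 6.02%, and with the clone block 5 (Tlr2, Tlr4, Tlr6, Tlr7 and Myd88) against 12.4%. With the block and without clone 2, Tlr7 was the 1 gene called higher in Dox than in untreated clones and 0 were called lower in washed than in Dox clones, and without clone 4 neither comparison had a call among the 7. The median log2 fold change of the 7 was 1.11 for Dox against untreated and -1.22 for washed against Dox, beside 0.00 and 0.04 over all tested genes. A gene can pass the count filter through the group in which it is high, so these counts and medians describe the 7 and support no more.

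**Figure D1:**
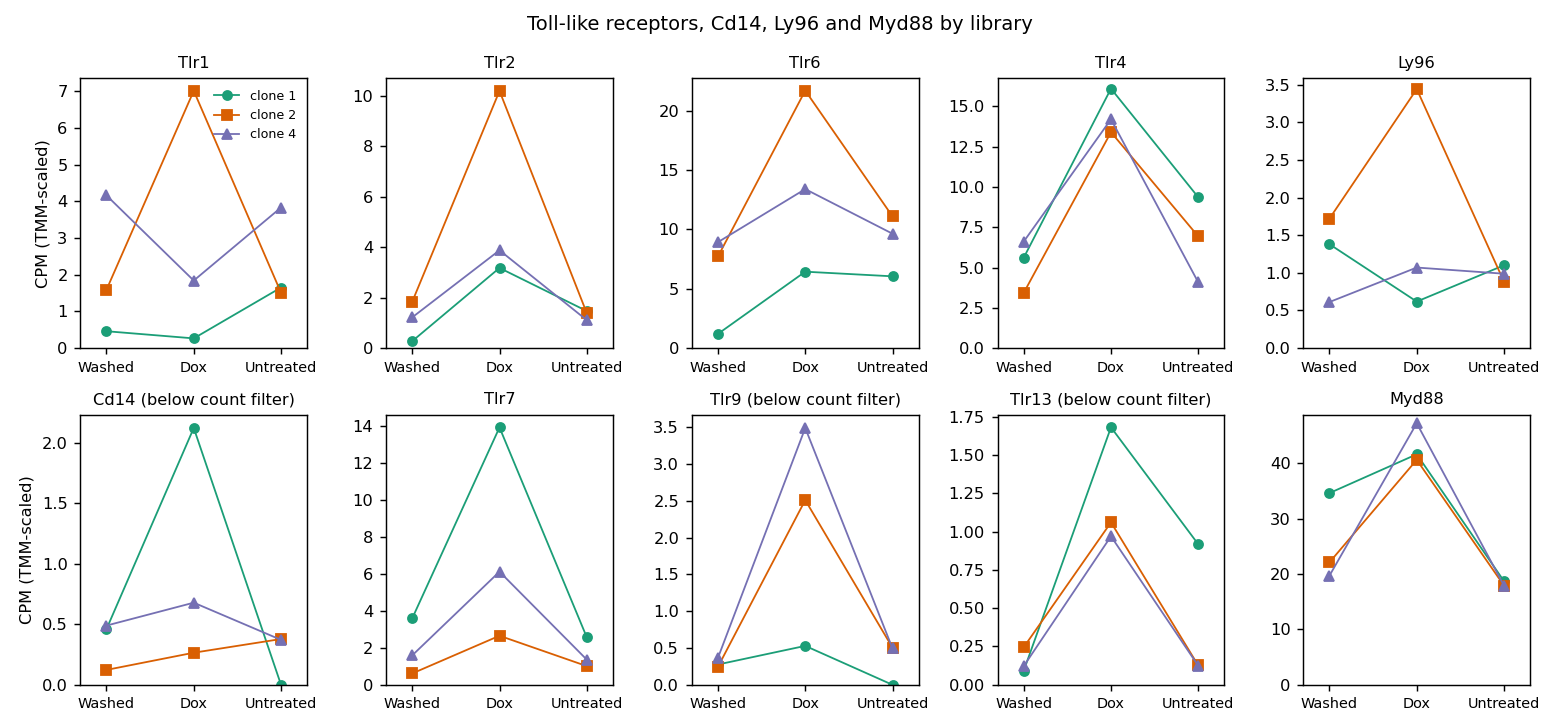
Level of each of the 10 genes in each library (CPM, linear axis from 0 with its own scale in each panel), with washed, Dox and untreated libraries from left to right, and 1 colour and a connecting line for each clone. Myd88, Tlr2, Tlr4, Tlr7, Tlr9 and Tlr13 have all 3 Dox points above the 3 untreated points, while the groups overlap for Tlr1, Tlr6, Ly96 and Cd14.

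Among the surface receptors, Tlr2 recognises bacterial lipoproteins and pairs with Tlr1 or Tlr6. Tlr2 lies at chr3:83836272-83841824 (GRCm38, minus strand). It had 0.276, 1.84 and 1.22 CPM in washed clones 1, 2 and 4, 3.18, 10.2 and 3.88 CPM in Dox clones, and 1.47, 1.39 and 1.11 CPM in untreated clones. These rest on 3 to 77 counts in a library. The Dox clones did not overlap with either other group, and clone 2 had the highest Dox value. The log2 fold change of Dox over untreated was 2.10 ± 0.67 (SE, n = 3 clones each), with an edgeR adjusted p of 0.0775, or 0.0249 with the clone block. Washed over Dox gave -2.37 ± 0.67 (adjusted p = 0.0569, or 0.0128 with the clone block).

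Tlr6, the partner of Tlr2 for diacylated lipopeptides, lies at chr5:64953092-64970942 beside Tlr1 on the minus strand. It had 1.20, 7.72 and 8.93 CPM in washed clones 1, 2 and 4, 6.44, 21.7 and 13.4 CPM in Dox clones, and 6.05, 11.1 and 9.64 CPM in untreated clones. Dox exceeded untreated within each clone, by ratios of 1.06, 1.96 and 1.39 in clones 1, 2 and 4, but the groups overlapped because clone 1 was low throughout. The log2 fold change of Dox over untreated was 0.62 ± 0.66 (edgeR adjusted p = 0.587, or 0.335 with the clone block). Washed over Dox gave -1.22 ± 0.67 (adjusted p = 0.285), and the gene was called lower only with the clone block (adjusted p = 0.0404).

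Tlr1, the partner of Tlr2 for triacylated lipopeptides, lies at chr5:64924680-64933600 on the minus strand. Its values were 0.460, 1.59 and 4.16 CPM in washed clones 1, 2 and 4, 0.265, 7.01 and 1.84 CPM in Dox clones, and 1.65, 1.51 and 3.83 CPM in untreated clones. The highest and the lowest of the 9 values were both in Dox clones, clone 2 with 53 counts and clone 1 with 3. Dox over untreated gave a log2 fold change of 0.34 ± 1.03 (edgeR adjusted p = 0.866), with a 95% interval of -1.67 to 2.35 that allows a change of either sign. Tlr1 and Tlr6 are related in sequence: 454 stretches of 50 bases occur in transcripts of both, 13.6% of those of Tlr1 and 12.3% of those of Tlr6, so reads there may be shared.

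Tlr4 is the receptor for lipopolysaccharide of Gram-negative bacteria and lies at chr4:66827551-66846581 (plus strand). It had 5.61, 3.43 and 6.61 CPM in washed clones 1, 2 and 4, 16.1, 13.4 and 14.2 CPM in Dox clones, and 9.36, 6.93 and 4.08 CPM in untreated clones. The Dox values lay close together and above all 6 others. Tlr4 fell in washed clones against Dox clones, with a log2 fold change of -1.48 ± 0.36 (edgeR adjusted p = 0.0346, or 0.0149 with the clone block) and a level of 5.22 ± 1.62 CPM in washed against 14.6 ± 1.37 CPM in Dox clones (SD, n = 3 each). Without the block this call was lost when clone 1, 2 or 4 was left out (adjusted p = 0.09, 0.185 and 0.247). Dox over untreated gave 1.11 ± 0.36 (adjusted p = 0.0812, or 0.0378 with the clone block), and the within-clone ratios were 1.72, 1.93 and 3.49 in clones 1, 2 and 4.

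The partners of Tlr4 for lipopolysaccharide had low counts. Ly96, also called MD-2, binds the ligand and holds Tlr4 at the surface, and lies at chr1:16688456-16709605. It had 1.38, 1.72 and 0.612 CPM in washed clones 1, 2 and 4, 0.618, 3.44 and 1.07 CPM in Dox clones, and 1.10, 0.882 and 0.988 CPM in untreated clones, and the groups overlapped. Dox over untreated gave a log2 fold change of 0.75 ± 0.68 (edgeR adjusted p = 0.522), and washed over Dox gave -0.42 ± 0.65 (adjusted p = 0.742). Per kilobase of the gene length given in the files, Ly96 and Tlr4 overlapped in each group. Their means were 2.05 and 1.36 CPM per kb in washed, 2.83 and 3.78 in Dox, and 1.64 and 1.76 in untreated clones. Cd14, which hands lipopolysaccharide to Ly96 and Tlr4 and is a marker of monocytes, lies at chr18:36725064-36726815 and was below the count filter. It had 5, 1 and 4 counts in washed clones 1, 2 and 4, 24, 2 and 7 counts in Dox clones, and 0, 3 and 3 counts in untreated clones. Only Dox clones 1 and 4 had more than 5 counts, and the 0 in untreated clone 1 allows a level of up to 0.550 CPM, a limit that covers counting error only.

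The endosomal receptor Tlr7 binds single-stranded RNA and lies at chrX:167303380-167330574 (minus strand). It had 3.59, 0.613 and 1.59 CPM in washed clones 1, 2 and 4, 13.9, 2.65 and 6.11 CPM in Dox clones, and 2.57, 1.01 and 1.36 CPM in untreated clones. The order of the clones was the same in each group, clone 1 highest and clone 2 lowest. Within clones Dox exceeded untreated by 5.39, 2.63 and 4.49 times, and the washed level was 0.259, 0.232 and 0.261 of the Dox level. Without the clone block the log2 fold change of Dox over untreated was 2.23 ± 0.76 (edgeR adjusted p = 0.0943), and with it 2.04 ± 0.33 (adjusted p = 0.00495). Washed over Dox gave -1.94 ± 0.73 (adjusted p = 0.133), and -1.95 ± 0.32 with the block (adjusted p = 0.00537).

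Tlr9, the receptor for unmethylated CpG DNA, and Tlr13, a mouse receptor for bacterial ribosomal RNA, were both below the count filter. Tlr9 (chr9:106222598-106226876, plus strand) had 3, 2 and 3 counts in washed clones 1, 2 and 4, 6, 19 and 36 counts in Dox clones, and 0, 4 and 4 counts in untreated clones. Tlr13 (chrX:106143275-106160493, plus strand) had 1, 2 and 1 counts in washed clones, 19, 8 and 10 counts in Dox clones, and 5, 1 and 1 counts in untreated clones. In both genes each Dox library had more counts than any washed or untreated one, although in Tlr9 the 6 counts of Dox clone 1 were 0.529 CPM, close to the 0.504 CPM of untreated clone 2. With no count filter neither was called: Tlr9 had a log2 fold change of 2.56 ± 0.87 for Dox over untreated (edgeR adjusted p = 0.107) and -2.81 ± 0.86 for washed over Dox (adjusted p = 0.0845), and Tlr13 had 1.79 ± 0.81 (adjusted p = 0.239) and -2.95 ± 0.87 (adjusted p = 0.0717).

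RefSeq promoter windows of 300 bases, from 250 before the start to 50 after it, were at hand for 6 of the 10 genes (8 windows). They were searched on both strands for the PU.1 core motif GAGGAA and its extension GAGGAAGT, which contains the core. The core was found in 3 of the 8 windows (of Tlr1, Tlr9 and Tlr13) and in 28.3% of 32851 promoter windows of all genes. The extension was found in the same windows of Tlr1 and Tlr9, and in 3.20% of the 32851. The windows of Tlr2, Tlr6 and Myd88 and the other window of Tlr1 held no match. The upstream parts of the 3 windows with a match are shown because the hairpin is directed against PU.1, with the motif in capitals. That of Myd88 is shown beside them. All are read 5′ to 3′ along the gene on GRCm38: Tlr9 chr9:106222348-106222597 (plus), Tlr13 chrX:106143025-106143274 (plus), Tlr1 chr5:64933559-64933808 (minus) and Myd88 chr9:119340019-119340268 (minus). The line Tlr9 start gives chr9:106222598-106222627, where the extended motif lies on the opposite strand.
Tlr9: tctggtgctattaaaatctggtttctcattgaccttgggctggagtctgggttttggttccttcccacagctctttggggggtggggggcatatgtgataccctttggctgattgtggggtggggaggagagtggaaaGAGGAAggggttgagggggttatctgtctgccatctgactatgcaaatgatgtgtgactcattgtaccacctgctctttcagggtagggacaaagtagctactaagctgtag
Tlr9 start: tgaaagtgtcACTTCCTCaattctctgaga
Tlr13: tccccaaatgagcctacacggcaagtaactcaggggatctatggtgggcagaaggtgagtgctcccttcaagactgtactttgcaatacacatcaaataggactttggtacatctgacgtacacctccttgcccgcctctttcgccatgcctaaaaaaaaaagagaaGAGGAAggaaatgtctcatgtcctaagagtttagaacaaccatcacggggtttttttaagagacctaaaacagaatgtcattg
Tlr1: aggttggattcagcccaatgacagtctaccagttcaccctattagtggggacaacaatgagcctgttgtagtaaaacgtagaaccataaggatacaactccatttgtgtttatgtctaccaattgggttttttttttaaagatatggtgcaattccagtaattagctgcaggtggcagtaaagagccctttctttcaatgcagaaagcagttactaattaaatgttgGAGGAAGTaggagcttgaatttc
Myd88: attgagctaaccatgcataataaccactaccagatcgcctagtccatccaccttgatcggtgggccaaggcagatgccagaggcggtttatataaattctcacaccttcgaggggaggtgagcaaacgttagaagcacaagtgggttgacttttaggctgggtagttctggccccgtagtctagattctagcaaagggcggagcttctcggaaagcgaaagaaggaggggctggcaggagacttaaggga
The match lay 23 bases upstream of the start used for the window in Tlr1, 83 in Tlr13 and 112 in Tlr9. The start used for Tlr1 lies inside the gene span given above, which runs to 64933600 on the minus strand. The Tlr1 match also lies inside that span. A match or its absence describes these letters only. In Tlr9 the extended match began at base 11 after the start. Tlr1 was lower in Dox than in untreated clones 1 and 4 and higher in clone 2. Its highest count (53) was in Dox clone 2 and its lowest (3) in Dox clone 1. Each of the 10 genes, Myd88 included, had its highest count in a Dox library. Any bearing of the motif on these levels was not tested.

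Myd88, the shared adaptor, lies at chr9:119335934-119340018 on the minus strand. It had 34.6, 22.1 and 19.7 CPM in washed clones 1, 2 and 4, 41.6, 40.6 and 47.2 CPM in Dox clones, and 18.7, 17.9 and 17.9 CPM in untreated clones. The 3 groups did not overlap. Myd88 rose in Dox clones to 43.2 ± 3.54 CPM, against 18.2 ± 0.470 CPM in untreated clones (SD, n = 3 each), a log2 fold change of 1.25 ± 0.23 with an edgeR adjusted p of 0.0118 (0.00517 with the clone block). The ratio within clones was 2.23, 2.27 and 2.63 in clones 1, 2 and 4. The call was lost without clone 2 (adjusted p = 0.0959), without clone 4 (0.239) and without the untreated library of clone 1 (0.0552), with fold changes of 1.27, 1.16 and 1.27 on the log2 scale.

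After washout Myd88 stood at 0.831, 0.543 and 0.417 of the Dox level in clones 1, 2 and 4. Washed over Dox gave a log2 fold change of -0.76 ± 0.23 (edgeR adjusted p = 0.0685, or 0.0279 with the clone block). Every washed value was above every untreated value, as in 1.31% of all tested genes, and the ratio of washed to untreated was 1.85, 1.23 and 1.10. That difference was not called (log2 fold change 0.49 ± 0.23, adjusted p = 1). Exons of Myd88 and Acaa1a, a peroxisomal thiolase gene on the opposite strand, share 290 bases, and without a known strand setting reads there cannot be assigned. Acaa1a averaged 28.3 ± 6.63 CPM in washed, 36.5 ± 11.0 CPM in Dox and 29.8 ± 3.92 CPM in untreated clones (SD, n = 3 each), with a log2 fold change of Dox over untreated of 0.29 (adjusted p = 0.538).

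**Figure D2:**
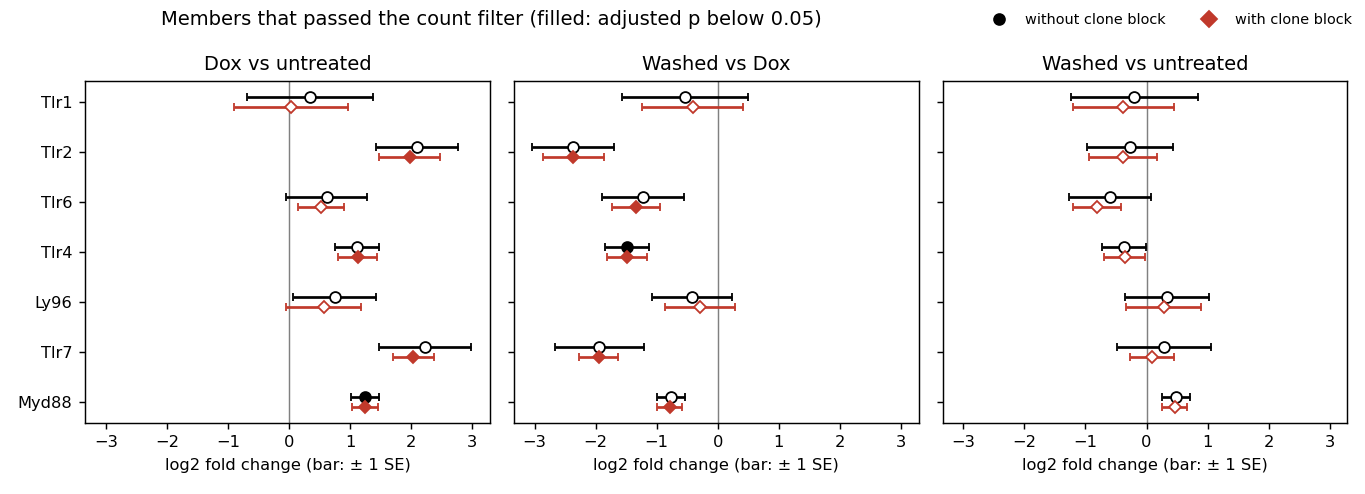
Log2 fold change ± 1 SE of the 7 tested genes for Dox against untreated, washed against Dox and washed against untreated clones, in edgeR fits without (circles) and with (diamonds) clone as a block. Filled symbols have an adjusted p below 0.05: without the block Myd88 at 1.25 in the first panel and Tlr4 at -1.48 in the second, and none in the third.

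For washed against untreated clones, 0 of the 7 genes and 0% of the 12004 tested genes were called by edgeR. Over all genes 38 had an unadjusted p below 0.05, and DESeq2 and limma called 0 as well. The log2 fold changes of the 7 lay between -0.60 ± 0.67 for Tlr6 and 0.49 ± 0.23 for Myd88. Tlr6 was lower in the washed library of each clone, with washed to untreated ratios of 0.198, 0.697 and 0.927 in clones 1, 2 and 4. The other 5 tested genes were higher in some clones and lower in others.

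Compared per kilobase of the gene length given in the files, Myd88 had the highest level in each group, at 13.4 CPM per kb in washed, 22.7 in Dox and 9.54 in untreated clones. Tlr6 came next at 2.29 CPM per kb in washed, 5.32 in Dox and 3.43 in untreated clones. In Dox clones the order went on with Tlr4 (3.78 CPM per kb), Ly96 (2.83), Tlr2 and Tlr7 (2.01 each), Tlr1 (1.18), Cd14 (0.681), Tlr9 (0.627) and Tlr13 (0.308). Only Myd88 was separate from its neighbour in that order, since the ranges of all other neighbours overlapped. In untreated clones Tlr1 (0.908 CPM per kb) was also separate from Tlr2 (0.463) below it, and Tlr7 (0.439) from Cd14 (0.167).

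**Figure D3:**
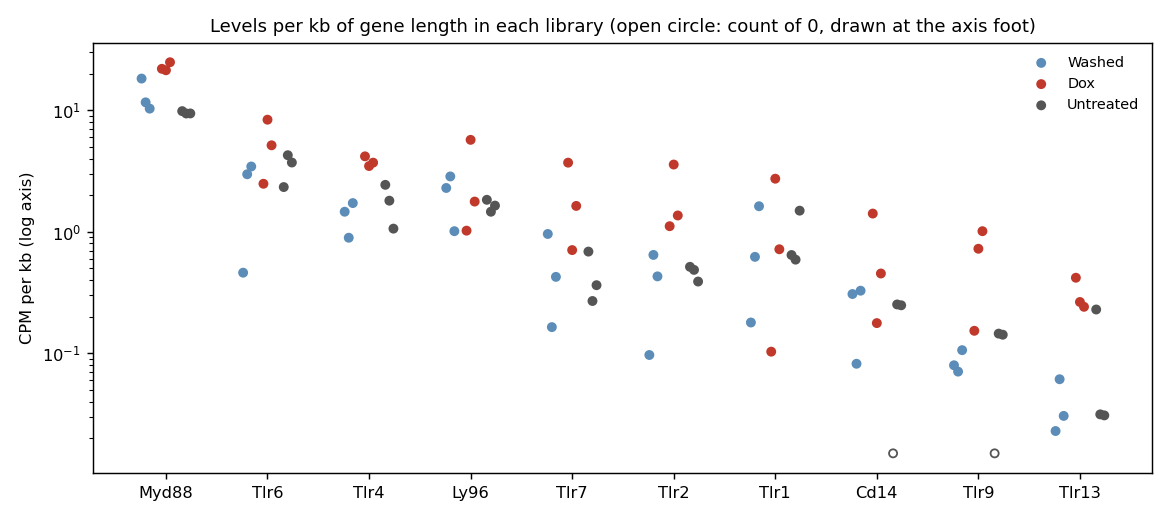
Level per kilobase of gene length (CPM per kb, log axis) of the 10 genes in washed, Dox and untreated clones, where each point is 1 library and an open circle marks a count of 0. Myd88 lies above the other 9 genes in every group, with a mean of 22.7 CPM per kb in Dox clones.

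Differences between the clones were called for 2 receptors, in the comparison of clones 2 and 1 alone. In a model with group and clone, Tlr6 was higher in clone 2 than in clone 1 (log2 fold change 1.65 ± 0.40, edgeR adjusted p = 0.0359), and Tlr7 was lower in clone 2 than in clone 1 (-2.12 ± 0.34, adjusted p = 0.0315). These 2 of 7 stood beside 18.5% of all tested genes called between these clones. Tlr1 (2.23 ± 0.91, adjusted p = 0.104) and Tlr2 (1.38 ± 0.51, adjusted p = 0.0833) also had higher fitted levels in clone 2 but were not called. Both calls were lost without the Dox library of clone 1 (adjusted p = 0.094 for Tlr6 and 0.0868 for Tlr7), when 2 of 12236 genes were called in all.

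No gene of the 12004 was called by edgeR between clones 4 and 1, between clones 4 and 2, or in a joint test of the clones, where 2372, 2776 and 4501 genes had an unadjusted p below 0.05. In the joint test Tlr7 had an adjusted p of 0.0518 and Tlr6 of 0.0665. The difference in Dox response between clones was tested as an interaction, with untreated and washed libraries pooled, and 0 of 12004 genes were called (407 with an unadjusted p below 0.05). Each clone had 1 Dox library in this test, so its spread came only from washed against untreated libraries within clones. The lack of calls therefore does not show that the clones responded alike. The largest interaction among the 7 was that of Tlr1, which was not called. Its log2 response in clone 2 exceeded that in clone 1 by 3.94.

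**Figure D4:**
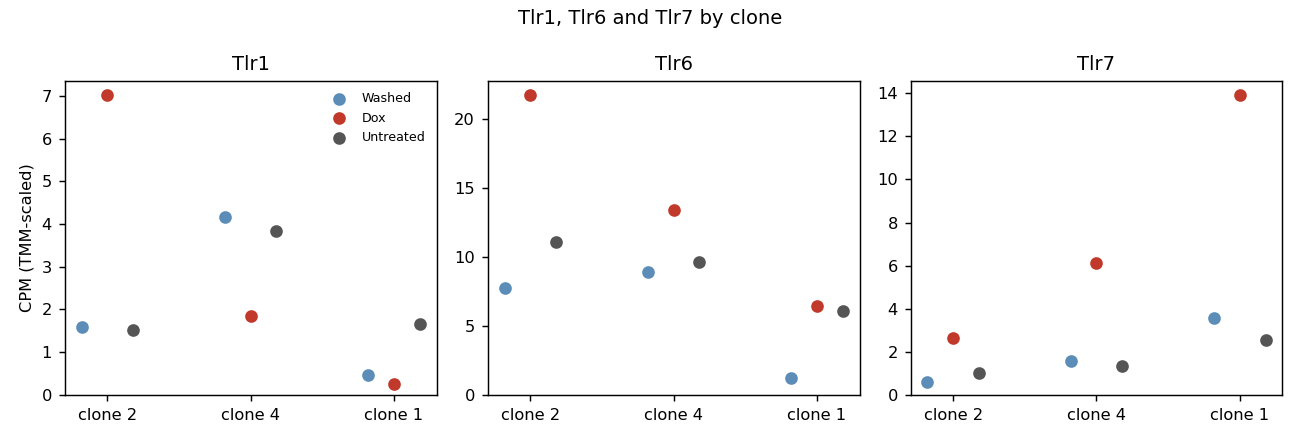
Levels of Tlr1, Tlr6 and Tlr7 (CPM, linear axis) in clones 2, 4 and 1, where each point is 1 library and the washed, Dox and untreated libraries of a clone stand side by side. Among Dox clones Tlr7 is lowest in clone 2 (2.65 CPM) and highest in clone 1 (13.9 CPM), whereas Tlr6 and Tlr1 are highest in clone 2 (21.7 and 7.01 CPM) and lowest in clone 1 (6.44 and 0.265 CPM).

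Likeness of pattern was measured as Pearson's r of log2 CPM over the 9 libraries, which share 3 clones and 3 groups. With Spi1, r was 0.88 for Myd88, 0.86 for Tlr4, 0.74 for Tlr7, 0.73 for Tlr2, 0.32 for Ly96, 0.27 for Tlr6 and -0.22 for Tlr1. The genes most like Myd88 were Lrrfip2 (0.984), Ago4 (0.981) and Inpp1 (0.979), and those most like Tlr4 were Usp49 (0.969), Tyrobp (0.958), an adaptor of myeloid receptors, and Abca3 (0.952). Tlr2 was most like Snrk (0.997), Adamtsl4 (0.988) and L1cam (0.986), and Tlr7 most like Aatk (0.993), Tnfrsf1a (0.987), a receptor for tumour necrosis factor, and Fchsd2 (0.978).

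Dop1b (0.993), Ntng2 (0.979) and Fgl2 (0.979) were most like Tlr6. For Ly96 the highest values were lower, with 0.887 for Rnf152. The genes most like Tlr1 were CYTB (0.994) and ND4L (0.974), both encoded in the mitochondrial genome. Mitochondrial genes took 3.28%, 15.8% and 22.0% of counts in washed clones 1, 2 and 4, 2.66%, 18.6% and 7.52% in Dox clones, and 12.7%, 16.8% and 20.4% in untreated clones, so the libraries with the smallest shares, washed and Dox clone 1, were also those with the lowest Tlr1. The part of this share in the Tlr1 values was not tested.

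The rest of the pathway was read from lists covering 88 genes, chosen with earlier results of these data known. The counts of called list genes stand beside the shares over all tested genes, 6.57% called higher in Dox than in untreated clones (13.0% with the clone block) and 6.02% called lower in washed than in Dox clones (12.4% with the block). Whether a list exceeds these shares was not tested, and genes low outside Dox clones, such as Irf5 and Icam1, may have passed the count filter through the Dox group alone. Of the other Toll-like receptors and the related Cd180 complex, 0 of 7 genes passed the count filter. Tlr3 and Tlr11, named after their values were seen, had 0 counts in all 9 libraries, which allows up to 0.265 to 0.550 CPM depending on the library. Of 8 tested genes for chaperones, transport and ligand transfer, 1 was called higher in Dox clones and 0 lower (2 and 0 with the clone block). The gene that rose was Lbp, which carries lipopolysaccharide to Cd14, at 49.2 ± 47.1 CPM in washed, 148 ± 81.4 CPM in Dox and 28.0 ± 6.26 CPM in untreated clones (SD, n = 3 each), with a log2 fold change of 2.41 ± 0.65 over untreated (edgeR adjusted p = 0.0443). Cnpy3, a chaperone of Toll-like receptors, had 0.50 ± 0.14 (adjusted p = 0.0534, or 0.0245 with the clone block). For washed against Dox clones 0 genes of this list were called, and 2 lower with the block, Lbp (-1.59, adjusted p = 0.00769) and Cnpy3 (-0.49, adjusted p = 0.0274).

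Of 18 tested adaptors, kinases and ubiquitin ligases, 2 were called higher in Dox clones and 0 lower (5 and 0 with the clone block). Irak4, the first kinase recruited by Myd88, averaged 12.5 ± 1.23 CPM in washed, 26.7 ± 2.76 CPM in Dox and 12.6 ± 1.07 CPM in untreated clones (SD, n = 3 each). It rose in Dox over untreated clones with a log2 fold change of 1.08 ± 0.20 (edgeR adjusted p = 0.0109) and was the 1 gene of this list called lower in washed than in Dox clones (3 with the clone block). Pik3ap1, a link between Toll-like receptors and phosphoinositide kinase, rose in Dox against untreated clones with a log2 fold change of 1.55 ± 0.42 (adjusted p = 0.0438). Tab2 and Peli1 had 0.47 ± 0.15 and 0.55 ± 0.19 and were called only with the clone block (adjusted p = 0.0814 and 0.106, or 0.0305 and 0.0499 with it).

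In the NF-kappaB, MAP kinase and IRF arm, 2 of 14 tested genes were called higher in Dox clones and 0 lower (3 and 0 with the clone block). Irf5, a transcription factor activated through Myd88, averaged 0.368 CPM in washed, 3.69 CPM in Dox and 0.761 CPM in untreated clones, with a log2 fold change of Dox over untreated of 2.31 ± 0.51 (edgeR adjusted p = 0.0218). Rel, the NF-kappaB subunit c-Rel, rose with 2.20 ± 0.50 (adjusted p = 0.0248). Rel averaged 3.65 ± 2.85 CPM in washed, 14.0 ± 1.51 CPM in Dox and 3.05 ± 0.462 CPM in untreated clones (SD, n = 3 each). Irf5 and Rel were called lower in washed than in Dox clones, the only 2 of the list (4 with the clone block).

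Among 11 tested inhibitors of the pathway, 2 were called higher in Dox clones and 0 lower (4 and 1 with the clone block). Cyld, a deubiquitinase that restrains NF-kappaB, rose to 179 ± 5.90 CPM in Dox clones, against 59.5 ± 3.94 CPM in untreated clones (SD, n = 3 each; log2 fold change 1.59 ± 0.15, edgeR adjusted p = 0.00124). Trafd1, a feedback inhibitor, rose with 0.80 ± 0.16 (adjusted p = 0.0174). Cyld and Trafd1 were the 2 inhibitors called lower in washed than in Dox clones (3 lower and 1 higher with the clone block). Irak3, a kinase homologue that blocks Irak signalling, had 1.12 ± 0.38 (adjusted p = 0.091, or 0.014 with the block), and Tnfaip3, another deubiquitinase, had -0.83 ± 0.27 (adjusted p = 0.0828, or 0.0284 with the block).

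Of 20 genes known as induced targets of Toll-like receptors, 9 were tested, and 2 of these were called higher in Dox clones and 0 lower (4 and 0 with the clone block). Clec4e, the lectin Mincle, averaged 2.83 ± 1.18 CPM in washed, 32.1 ± 3.37 CPM in Dox and 2.62 ± 0.354 CPM in untreated clones (SD, n = 3 each), with a log2 fold change of Dox over untreated of 3.61 ± 0.35 (edgeR adjusted p = 0.00124). Icam1, an adhesion molecule, rose with 3.09 ± 0.56 (adjusted p = 0.0111). These 2 were also the targets called lower in washed than in Dox clones (4 with the clone block). The chemokine Ccl3 had 2.41 ± 0.77 and the interleukin receptor antagonist Il1rn 2.13 ± 0.71. Both were called only with the clone block (edgeR adjusted p = 0.0791 and 0.0896, or 0.0125 and 0.0447 with it). None of the other tested targets was called, with or without the block. For Dox over untreated, Tnf and Nfkbiz had log2 fold changes of 1.07 and 0.53. Those of Il6, Ptgs2 and Sod2 were below 0 (-1.26, -0.96 and -0.20).

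Other receptors of the family that uses Myd88 had 5 tested genes, of which 2 were called higher in Dox clones and 0 lower, the same counts as with the clone block. Il1rap, the shared signalling chain, rose with a log2 fold change of 1.51 ± 0.40 (edgeR adjusted p = 0.0416). The other tested genes were Il18rap (0.56 ± 0.33), Il1rl1 (-1.20 ± 1.01) and Il18r1 (-0.60 ± 0.73), beside Il1r2. None of Il18rap, Il1rl1 and Il18r1 was called in Dox over untreated clones, with or without the clone block. Il1r2, which rose with 3.24 ± 0.67 (adjusted p = 0.018), is a decoy receptor that does not signal. It stood at 2.80 ± 1.95 CPM in washed, 30.0 ± 6.94 CPM in Dox and 3.24 ± 2.09 CPM in untreated clones (SD, n = 3 each) and was the 1 gene of this list called lower in washed than in Dox clones (3 with the clone block). The median log2 fold change of Dox over untreated was -0.01 for the chaperone list, 0.25 for adaptors and kinases, 0.30 for the NF-kappaB arm, 0.38 for inhibitors, 1.07 for induced targets and 0.56 for the other receptors, beside 0.00 over all tested genes. For washed over Dox the medians in the same order were 0.04, -0.21, -0.32, -0.54, -1.11 and -0.92, beside 0.04. For washed against untreated clones 0 genes of any of the lists were called by edgeR, with or without the clone block. The summed monocyte and macrophage markers ran over 1210 to 5370 CPM in Dox clones and 1780 to 2310 CPM in untreated clones, with overlap, and single markers went both ways (Adgre1 averaged 73.1 CPM in Dox and 21.4 in untreated clones, Csf1r 13.5 in Dox and 29.8 in untreated clones). Their part in these lists and in the 10 genes was not tested.

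**Figure D5:**
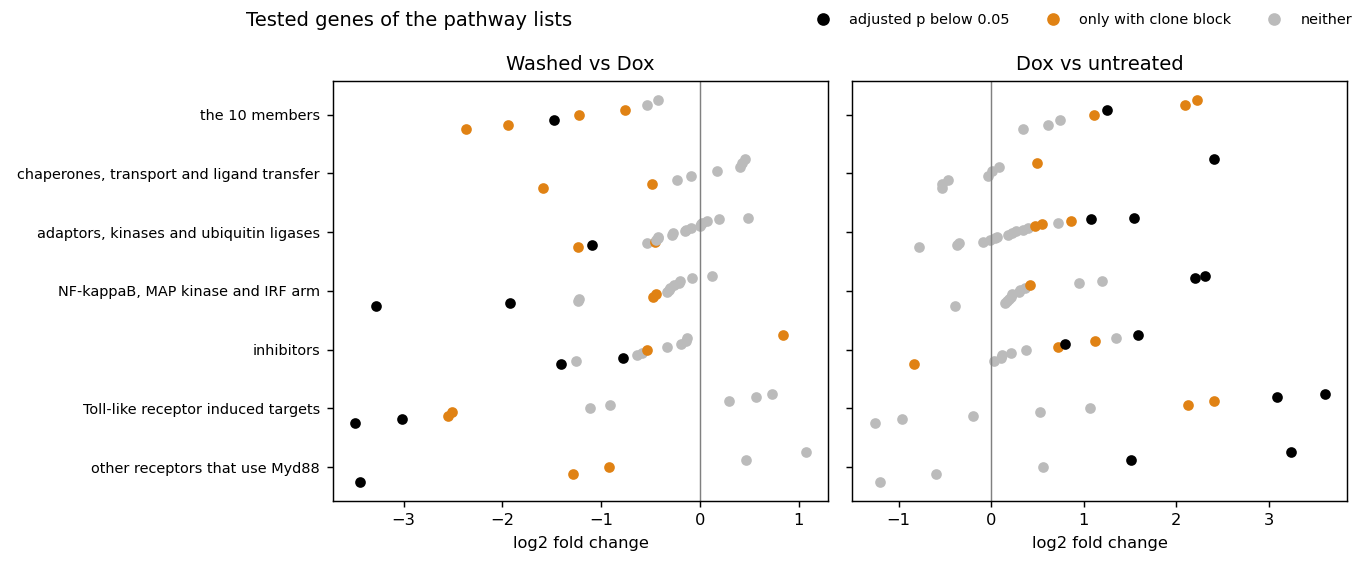
Log2 fold change of each tested gene of the lists for washed against Dox (left) and Dox against untreated clones (right), with the 10 genes in the top row. Black points have an adjusted p below 0.05, orange points only with the clone block and grey points neither, and on the right the black points are all above 0, up to 3.61 for Clec4e.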

How the data were processed

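RNA was sequenced from 9 libraries, 3 clones in each of 3 groups. Each deposited file holds raw counts of reads per Entrez gene and a gene length, per the file headers, with no normalization. The submitters' processing notes name the mm10 build (GRCm38), CASAVA 1.8.2, featureCounts, limma 3.22.0 and edgeR 3.8.2. The sources used here give neither the aligner nor the strand setting nor the handling of multiply matching reads. Symbols from the RefSeq table of GRCm38.p6 matched 25275 of 27179 entries.

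Genes were filtered with filterByExpr (12004 kept) and scaled by TMM, and all 9 libraries entered 1 quasi-likelihood fit with a mean per group (edgeR 4.0.16, R 4.3.3). P-values were adjusted by Benjamini-Hochberg over all tested genes and called at 0.05. SE was taken as the log2 fold change over the root of F, and 95% intervals are 1.96 SE to either side. Clone tests used group and clone, or clone and its interaction with Dox. Log2 CPM used a prior count of 2. Without the block, the spread behind the p-values is that among 3 clones of a single line. With the block, and in the clone tests with group and clone, it is what remains after clone and group are fitted. In the interaction test it is that between washed and untreated libraries of a clone. The scripts were tested on simulated counts.

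The clone number pairs the libraries: same-clone libraries come from 1 clonal line, and their deviations from group means correlated at 0.29 to 0.68 in all 9 pairs. Blocked values therefore stand beside results whose call they change. Even the closest 2 libraries differed beyond sampling noise (chi-square over degrees of freedom 3.62), so none was counted as a duplicate. These 2 were the washed and untreated libraries of clone 4, and those of clone 2 came next (5.88). In clone 1 the value was 380 for washed and untreated and 103 for washed and Dox libraries. The part of the 22.0% of counts on 1 entry in untreated clone 1 was not tested.

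The 10 genes, the pathway lists and the markers were chosen with earlier results of these data known. Named genes are the 10, Spi1 and up to 4 genes per list of smallest p for Dox against untreated. Also named are the 3 of highest Pearson r with each tested gene, and results for a few genes are left out. Uncalled genes among the induced targets and the other receptors that use Myd88 were named after their values were seen. Alternatives comprised library size alone, RLE size factors, no count filter, at least 5 CPM in 3 libraries, limma 3.58.1 (voom), DESeq2 1.42.0, the 2 groups alone, the clone block, and leaving out each clone or the untreated library of clone 1. Leaving out the washed library of clone 1 or the Dox library of clone 1 (for the clone test), and the block combined with these, were chosen after seeing the data.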

Additional observations from a re-analysis of the deposited data

How the results depend on the processing

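Among the 7 tested genes, the single call for Dox against untreated clones became 3 with library size alone and 4 with DESeq2. It became 2 with the 2 groups alone and 4 with clone as a block (the pairing). When libraries of clone 1 were left out, Tlr9 also passed the filter, and the counts of these omissions include it where called. For Dox against untreated, leaving out a clone or a library of clone 1 gave 0 to 3 calls. There were 0 without clone 2, clone 4 or the untreated library of clone 1, and 3 without the washed library of clone 1. Without clone 1 there were 2, Myd88 and Tlr9. For washed against Dox the single call became 2 with library size alone, 3 with DESeq2, 0 with the 2 groups alone and 5 with the block. Over the same omissions it became 0 to 3. With the block the omissions gave 0 to 5 and 0 to 6, where the 5 and the 6 each include Tlr9. The test of any clone difference had 0 of the 7, but 2 with library size alone and 2 with no count filter, where all 10 were tested. For that test, calls over all genes were not counted under these 2 settings, so no background stands beside them. The counts over all genes for the group comparisons follow.

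Over all genes, the 1311 called for Dox against untreated became 2138 with DESeq2, 2026 with the 2 groups alone, 2976 with the block and 0 to 2258 over the omissions (0 without clone 4, 159 without clone 2, 347 without the untreated library of clone 1). There were 1053 with library size alone and 967 without clone 1. Tested genes were 12004 in all of these except the 2 groups alone (11671) and the omissions (12069 to 12309). The 1160 for washed against Dox became 648 with library size alone, 1967 with DESeq2, 324 with the 2 groups alone, 2744 with the block and 4 to 1814 over the omissions. With the block and without clones 1, 2 and 4 in turn, the counts were 4117, 623 and 360 for Dox against untreated and 4325, 421 and 320 for washed against Dox; without the untreated library of clone 1 they were 2414 and 3561, and without the washed one 4732 and 3820. Washed against untreated had 0 under every alternative run. Between clones 2 and 1, 2223 genes were called, and 1669 with library size alone, 827 without the washed, 4448 without the untreated and 2 without the Dox library of clone 1. With library size alone, the middle log2 fold change over all genes stood at 0.23 for Dox against untreated and 0.22 for washed against untreated.

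Signs turned only in uncalled values. With voom, Tlr1 turned to -0.67 for Dox over untreated and 0.01 for washed over Dox. Over the omissions Tlr1 ran from -1.41 to 1.17 for Dox over untreated, -1.81 to 1.11 for washed over Dox and -0.64 to 0.29 for washed over untreated, and Ly96 from -0.31 to 1.22, -0.91 to 0.27 and -0.04 to 0.64. For washed over untreated Tlr2 ran from -0.81 to 0.29 and Tlr7 from -0.53 to 0.72. With the block and without clone 2, Tlr1 turned to -1.67 and 1.03 and Ly96 to -0.30 and 0.24 for Dox over untreated and washed over Dox, and Ly96 to -0.06 for washed over untreated. With the block, washed over untreated turned without clone 1 for Tlr1 (0.10), Tlr2 (0.28) and Tlr7 (-0.15), without clone 4 for Tlr7 (0.00), without the untreated library of clone 1 for Tlr1 (0.22), Tlr2 (0.08) and Tlr7 (-0.15), and without the washed one for Tlr2 (0.03) and Ly96 (-0.11). The cause of these changes was not tested. The block changed no call of the 7 beyond those given in the report. At this depth Tlr9, Tlr13 and Cd14 could be tested only with no count filter or, for Tlr9, with libraries of clone 1 left out; with no filter none was called, and Cd14 had log2 fold changes of 1.93 ± 0.97 for Dox over untreated (adjusted p = 0.294) and -1.51 ± 0.91 for washed over Dox (adjusted p = 0.409). When libraries of clone 1 were left out, Tlr9, highest in Dox libraries, passed the filter. Its edgeR adjusted p for Dox over untreated was then 0.0367 to 0.216 without the block and 0.0053 to 0.0312 with it. For washed over Dox it was 0.0214 to 0.103 without the block and 0.00275 to 0.0124 with it. Since Tlr9 may have passed the filter through the Dox group, these values describe it and support no more.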
